A study of Mus musculus with 6 samples.

Results

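The 44 mouse genes described here are known interferon-stimulated genes that lie outside the Ifit, Oas, Gbp, Irg, Ifi200, Slfn, Stat and Irf families. They were chosen by symbol, for their known link to interferon, but with earlier results of these data known. The counts below are therefore not an independent test. Of the genes chosen, 44 of 44 were found among the 54347 gene rows of the deposited table. The study measured polyA-selected RNA in cultured neonatal microglia, the resident macrophages of the brain. It holds 6 libraries, 3 from Plcg2+/+ mice and 3 from their Plcg2-/- littermates, all C57BL/6 and all cultured in the same way. No drug, virus or interferon treatment is named in the labels. The cells came from forebrains of pups aged 2 to 3 days and were first grown in 10% serum with the myeloid growth factor GM-CSF at 5 ng/mL. Astrocyte-bearing cultures were shaken on day 12 to 13 to free the microglia, which then sat for 72 h or more in 1% serum and 0.5 ng/mL GM-CSF. A library is named by its genotype and number (Plcg2-/- 1), and where 3 values stand in a row they belong to replicates 1, 2 and 3 in that order, with Plcg2+/+ before Plcg2-/-.

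Type I interferons bind a receptor made of Ifnar1 and Ifnar2, and the kinases Jak1 and Tyk2 then phosphorylate STAT transcription factors. With Irf9 these form a complex that binds the interferon-stimulated response element in promoters, while interferon gamma acts through the gamma-activated site. The genes switched on in this way encode proteins that tag, cut, trap or sense viral material, and others that damp the signal again. In brain, microglia with high levels of such genes are known from infection, ageing and amyloid models.

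Levels are given in TPM, transcript abundances that are scaled by transcript length and to the same total in every library, so that levels can be set side by side between genes. Read depth cannot be recovered from such values and is unknown. Differences are log2 fold changes, Plcg2-/- relative to Plcg2+/+, of TPM + 1, a pseudocount of 1 that makes the change of weakly expressed genes look smaller, and ± after them is the standard error. After a mean in TPM, ± is the SD of the 3 libraries of a genotype. A gene was called higher or lower where limma's Benjamini-Hochberg adjusted p, taken over all 12652 genes tested, was below 0.05. The labels do not say whether replicates are separate animals or cultures, so each p-value reflects just the spread among these 6 libraries, and that spread may be technical.

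The transcript of Plcg2, which encodes phospholipase C gamma, read 45.2, 39.7 and 54.9 TPM in the Plcg2+/+ libraries against 16.0, 16.7 and 16.1 TPM in the Plcg2-/- ones, and fell by 1.45 ± 0.14 (log2 fold change, adjusted p = 0.00141 by limma). Transcript was therefore still read in each of the 3 Plcg2-/- libraries, and which stretch of the gene (chr8:117498291-117635142, GRCm38, plus strand) was deleted is not stated in the labels. Of 12 markers of microglia and macrophages, the summed level ran from 5145 to 6752 TPM in Plcg2+/+ and from 5090 to 7274 TPM in Plcg2-/-. Without overlap, 5 of these genes were higher in Plcg2-/- (P2ry12, Aif1, Fcrls, C1qa and Tyrobp) and 3 lower (Cx3cr1, Itgam and Trem2). Over all genes tested, 32.4% were higher and 10.9% lower without overlap. Csf1r, the growth factor receptor of macrophages, was at 503 to 780 TPM over the 6 libraries. Of the other markers in this list, Sall1 stayed below 1 TPM in every library and Tmem119 was at 0.0978 to 1.47 TPM. Cx3cr1 fell from 1.34–2.92 TPM in Plcg2+/+ to 0.0763–0.330 TPM in Plcg2-/-. P2ry12 went the other way, from 2.20–9.29 TPM in Plcg2+/+ to 18.9–27.7 TPM in Plcg2-/-, as did Fcrls, from 2.47–3.37 TPM to 28.4–53.6 TPM. Trem2 fell from 889–1538 TPM to 251–540 TPM and Itgam from 359–511 TPM to 70.06–99.97 TPM. Of 7 border macrophage markers 5 had all Plcg2-/- values above all Plcg2+/+ values, which held for 32.4% of all genes tested. The sum of all 7 was 378–426 TPM in Plcg2+/+ against 904–1033 TPM in Plcg2-/-, with 3 of the 7 below 1 TPM throughout. The sum of 7 dendritic cell markers was 9.69–11.3 TPM in the Plcg2+/+ libraries and 3.02–4.26 TPM in the others. Most of that gap lay in Clec9a, at 7.98–9.97 and 1.25–1.80 TPM, while Ccr9 was higher in Plcg2-/- without overlap and 5 of the 7 were below 1 TPM throughout. The sum of 7 lymphocyte markers, among them Cd3e and Cd3d listed at 0, was 0.838–1.29 and 0.198–0.395 TPM, most of it Klrb1c. Sums for astrocytes, the oligodendrocyte lineage, neurons, fibroblasts with endothelium, and monocytes with neutrophils overlapped between genotypes. Within these lists the astrocyte marker Aldh1l1 and the oligodendrocyte lineage marker Cnp were higher in Plcg2-/- without overlap. Cspg4, also of the oligodendrocyte lineage, was lower, at 6.72–13.1 TPM in Plcg2+/+ against 0.239–0.821 TPM. The share of TPM from mitochondrially encoded genes was 13.6% to 17.3% in Plcg2+/+ and 5.00% to 8.68% in Plcg2-/-. The part of these differences in the results that follow was not tested, apart from a limma fit rescaled without mitochondrially encoded genes. In that fit 40 of the 44 interferon-stimulated genes were called higher, against 1223 of all 12637 genes. Their median log2 fold change was 1.58, beside 0.0687 over all genes. In bulk RNA, fewer cells of a type and less RNA per cell cannot be told apart.

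Of the 44 genes, 42 were higher in Plcg2-/- microglia and 0 were lower by limma, where 15.6% of all genes tested were called higher and 5.31% lower. The other two were Ifitm2 and Ifi27l2a, described below with the membrane proteins. In every one of the 44 genes all 3 Plcg2-/- values lay above all 3 Plcg2+/+ values, which held for 32.4% of all genes tested (the reverse held for 10.9%). At an unadjusted p below 0.05, 44 were higher and 0 lower, but the share of all genes at that threshold was not counted. Log2 fold changes ran from 0.44 (Shisa5) to 3.75 (Mx1) with a median of 1.71, beside a median of 0.19 over all genes tested. A log2 fold change above 1 was found in 39 of the 44 genes, against 6.12% of all genes. One above 2 was found in 14, against 181 of all 12652 genes tested. Summed over the 44 genes, the level was 4376, 3480 and 4247 TPM in Plcg2+/+ and 13361, 11151 and 9325 TPM in Plcg2-/-, or 0.438%, 0.348% and 0.425% of all TPM against 1.34%, 1.12% and 0.933%. With median-of-ratios scaling, which sets the median of all genes to -0.0045, the median of the 44 genes was 1.50, and 39 were called higher against 7.71% of all genes. Under that scaling 975 genes were called higher and 993 lower over the whole table, instead of 1971 and 672. Leaving out 1 library moved the number of all genes called higher to 782 (Plcg2+/+ 1 left out), 940 (Plcg2+/+ 2), 559 (Plcg2-/- 1) and 786 (Plcg2-/- 3). The 44 genes gave 38 to 41 calls with any 1 of the 6 libraries left out.

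**Figure D1:**
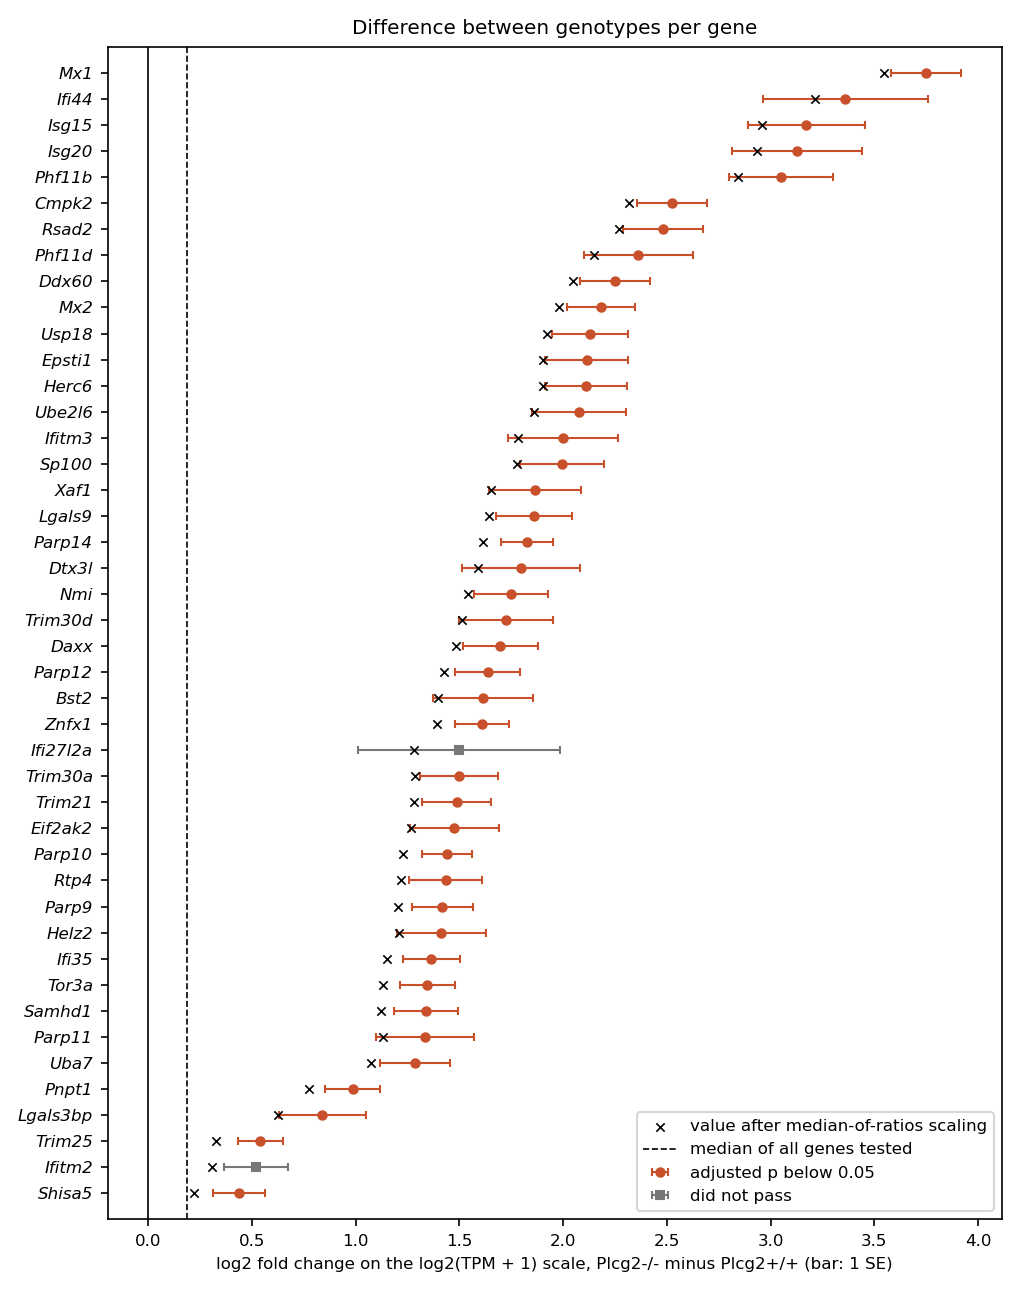
Log2 fold change (x axis, Plcg2-/- relative to Plcg2+/+, TPM + 1) for each of the 44 genes (y axis), in order of size, with bars of 1 standard error from limma (3 libraries per genotype), a dashed line at the median of all genes tested and crosses for the value after median-of-ratios scaling. Every point lies right of the all-gene median of 0.19, from Shisa5 at 0.44 to Mx1 at 3.75, and the grey squares are the 2 genes that were not called.

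The ISG15 system attaches the ubiquitin-like protein ISG15 to other proteins, and its 6 genes were all higher in Plcg2-/- (median log2 fold change 2.09). Isg15 itself, the modifier, stood at 52.1, 36.0 and 68.8 TPM in Plcg2+/+ and reached 627, 444 and 359 TPM in Plcg2-/-. Its lowest Plcg2-/- library was far above its highest Plcg2+/+ library, and the change was 3.17 ± 0.28 (limma, adjusted p = 0.00124). Usp18, the protease that removes ISG15 and also damps signalling at the type I interferon receptor, went from 32.5, 22.8 and 28.1 TPM to 151, 121 and 104 TPM (2.13 ± 0.18). Its rise was smaller than that of Isg15, but this difference between the genes was not tested. Ube2l6, the conjugating enzyme, was at 46.0, 35.4 and 55.6 TPM against 253, 179 and 157 TPM. Herc6, a ligase for ISG15 in mice, was at 18.8, 13.0 and 14.2 TPM against 86.8, 57.0 and 65.2 TPM. Both had the highest Plcg2-/- value in replicate 1, and their log2 fold changes were 2.07 ± 0.23 and 2.11 ± 0.20. The activating enzyme Uba7 rose from a mean of 67.4 ± 7.86 TPM to 167 ± 32.9 TPM (n = 3 each). Trim25, a ubiquitin ligase that activates RNA sensing, had the smallest change of the 6 genes, from 52.7, 53.9 and 54.1 TPM to 86.5, 71.5 and 77.7 TPM (0.54 ± 0.11, limma, adjusted p = 0.0166). The call for Trim25 was lost without Plcg2+/+ 1 (adjusted p = 0.0642, limma), Plcg2-/- 1 (0.0668) or Plcg2-/- 3 (0.0585), and with median-of-ratios scaling (0.0698).

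The antiviral GTPases and the enzymes that act on nucleotides and RNA included Mx1, which had the largest change of the 44 on the log2(TPM + 1) scale. All 6 genes were higher, with a median log2 fold change of 2.50. Mx1, a GTPase that traps viral ribonucleoproteins, stood at 10.3, 7.87 and 10.6 TPM in Plcg2+/+ and reached 170.1, 134 and 122 TPM in Plcg2-/-, a rise of 3.75 ± 0.17 or 14.8-fold between means (limma, adjusted p = 0.000637). Its relative Mx2 went from 9.72, 9.73 and 7.20 TPM to 46.8, 48.1 and 36.6 TPM, a rise of 2.18 ± 0.16. RefSeq lists both Mx genes as transcribed pseudogenes in the mouse reference genome, while GENCODE M21 calls Mx1 protein coding and Mx2 a polymorphic pseudogene, so these values are transcript levels and say nothing of the proteins. Rsad2 (viperin), which makes a nucleotide that ends viral RNA chains, went from 29.6, 23.8 and 24.6 TPM to 198, 129 and 129 TPM (2.48 ± 0.19). Cmpk2, the mitochondrial nucleotide kinase encoded next to it, went from 18.5, 13.4 and 16.0 TPM to 117, 85.4 and 88.2 TPM (2.53 ± 0.17). In both genes Plcg2-/- 1 was highest and the other two Plcg2-/- libraries were close together. Isg20, an RNA exonuclease, was at 3.00, 4.06 and 4.68 TPM against 66.7, 38.8 and 27.4 TPM, with a wide spread among the Plcg2-/- libraries (3.13 ± 0.31). Samhd1, which breaks down deoxynucleotides, was the most abundant of the group at 208 ± 21.9 TPM and rose to 529.6 ± 83.5 TPM, the smallest change of the 6 at 1.34.

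**Figure D2:**
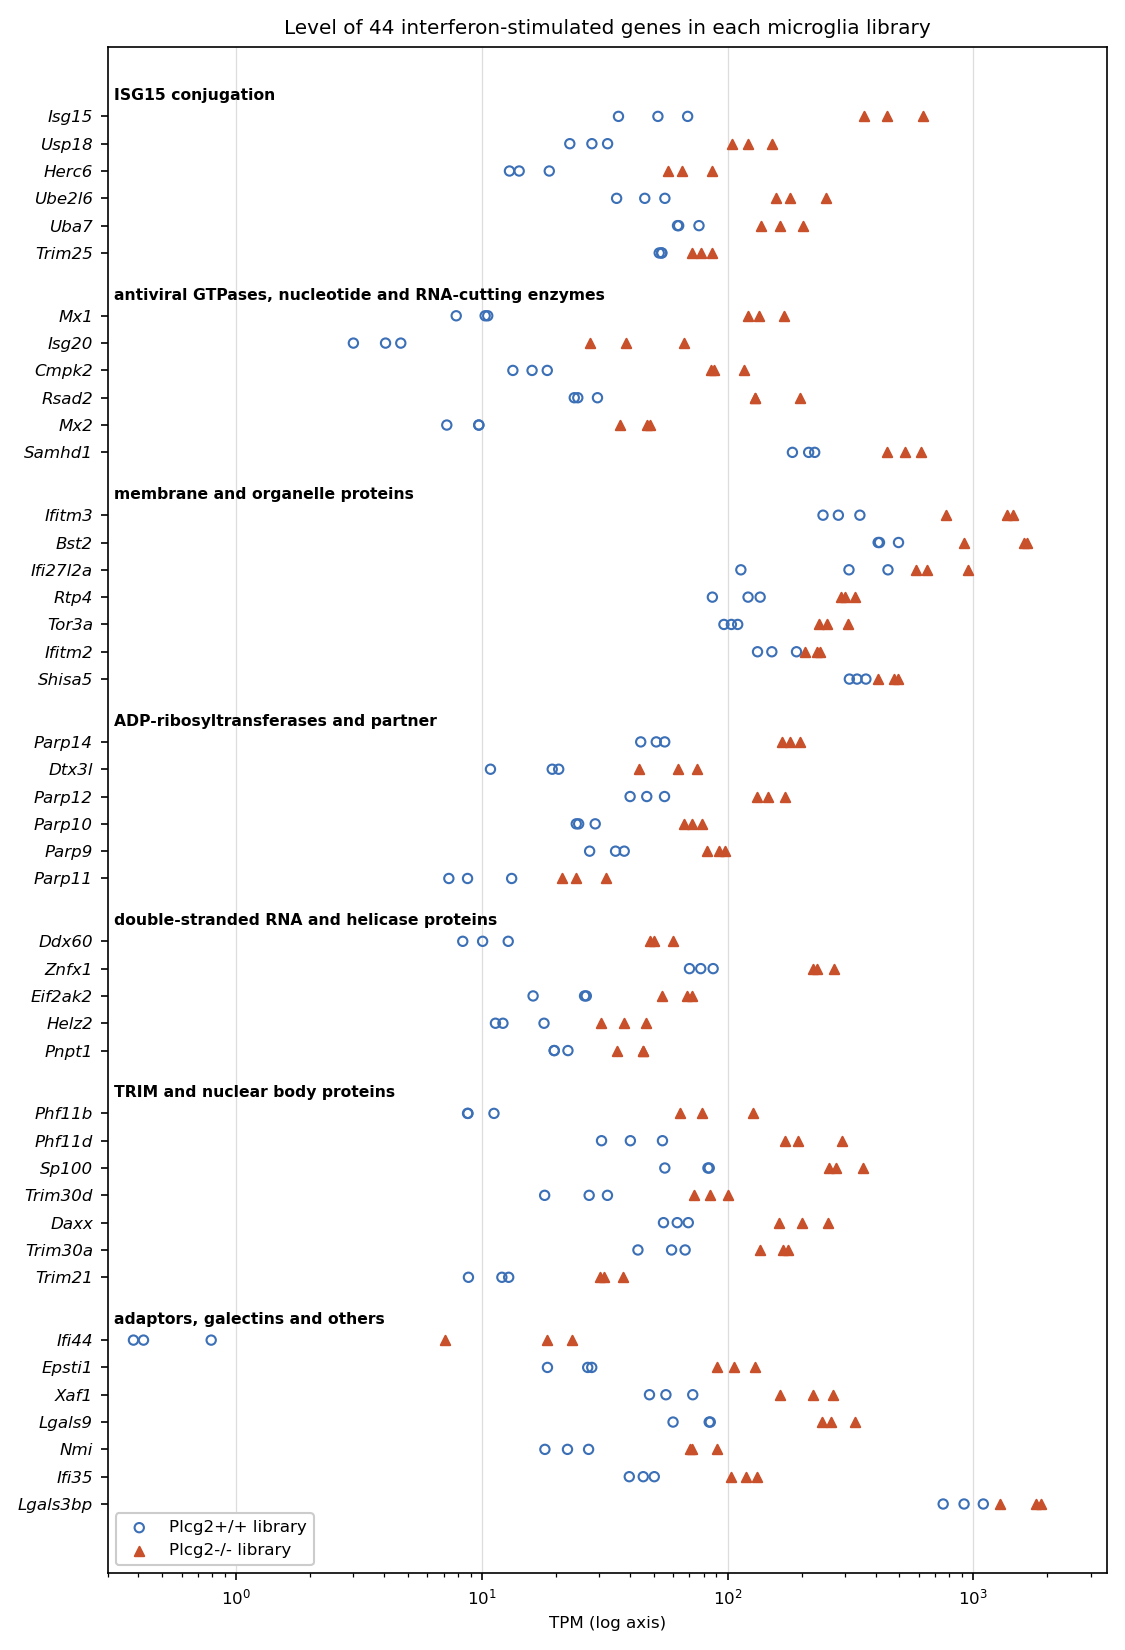
TPM in each of the 6 libraries (x axis, log scale) for the 44 genes (y axis), grouped by role, with an open circle per Plcg2+/+ library and a triangle per Plcg2-/- library. In every gene the 3 Plcg2-/- points lie right of the 3 Plcg2+/+ points, with the widest gaps for Mx1 and Ifi44 and the narrowest for Shisa5 and Ifitm2.

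Membrane and organelle proteins had the highest median level of the groups and the lowest median log2 fold change (1.43), with 5 of 7 higher. Bst2 (tetherin), which holds budding virus at the cell surface, stood at 410.1, 415 and 496 TPM in Plcg2+/+ and reached 1652, 1603 and 917 TPM in Plcg2-/-, and Plcg2-/- 3 was well below the other two Plcg2-/- libraries. Ifitm3, which blocks viral entry at endosomes, went from 282, 345 and 245 TPM to 1453, 1368 and 773 TPM and was likewise lowest in Plcg2-/- 3. The log2 fold changes were 1.61 ± 0.24 for Bst2 and 2.00 ± 0.27 for Ifitm3. Tor3a, an ATPase of the torsin family, was at 104, 110.0 and 96.6 TPM against 309, 235 and 253 TPM. Rtp4, a receptor-transporting protein induced by interferon, was at 136, 86.7 and 121 TPM against 329.8, 299 and 289.7 TPM. These rises of 1.35 ± 0.13 and 1.43 ± 0.18 lay close together. Ifitm2, a close relative of Ifitm3, was at 132, 191 and 151 TPM against 206, 238 and 232 TPM, a difference of 0.52 ± 0.16 that was not called (limma, adjusted p = 0.0556). It was called without Plcg2+/+ 2 (adjusted p = 0.0299, limma) and with the replicate numbers as a block (0.0310). Ifi27l2a was at 312, 113 and 449.5 TPM against 951, 650.2 and 584 TPM, with the widest spread of any of the 44 genes in Plcg2+/+, where the highest value was 3.97 times the lowest. Its log2 fold change of 1.50 ± 0.49 was not called (limma, adjusted p = 0.0697), but was without Plcg2+/+ 3 (0.0366) and with the replicate block (0.0477). Shisa5, an endoplasmic reticulum protein tied to cell death, was at 366, 313 and 336 TPM against 492, 409.6 and 474 TPM, and passed narrowly (0.44 ± 0.12, limma, adjusted p = 0.0486). Its call was lost without Plcg2+/+ 1 (adjusted p = 0.0907, limma), Plcg2+/+ 2 (0.112), Plcg2+/+ 3 (0.0761), Plcg2-/- 1 (0.158) or Plcg2-/- 3 (0.141), and with median-of-ratios scaling (0.217).

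The ADP-ribosyltransferases, which attach ADP-ribose to proteins, moved within a narrow range. All 6 genes of the group were higher, with log2 fold changes from 1.33 to 1.83. Parp14, the largest of these enzymes, went from 55.5, 44.3 and 51.3 TPM to 196, 167 and 179 TPM, with little spread in either genotype (1.83 ± 0.12, limma, adjusted p = 0.000717). Parp12, an enzyme with RNA-binding zinc fingers, went from 55.4, 40.1 and 46.9 TPM to 171, 132 and 145 TPM. Parp10 went from 28.9, 24.2 and 24.8 TPM to 78.9, 71.4 and 66.4 TPM, and its exons overlap those of Plec on the same strand, a gene whose means were 39.7 TPM (Plcg2+/+) and 31.3 TPM (Plcg2-/-). The changes were 1.64 ± 0.16 for Parp12 and 1.44 ± 0.12 for Parp10. Parp9 and Dtx3l form a ubiquitin ligase complex. Parp9 was at 35.0, 27.5 and 38.0 TPM against 97.3, 82.4 and 91.9 TPM (1.42 ± 0.15). Dtx3l was at 20.6, 10.8 and 19.3 TPM against 75.4, 43.6 and 63.0 TPM (1.80 ± 0.29), and it had the largest standard error of the group. Parp11, the gene with the smallest change of the group, went from 13.2, 7.34 and 8.75 TPM to 31.9, 24.2 and 21.3 TPM (1.33 ± 0.23), and its call was lost without Plcg2-/- 1 (limma, adjusted p = 0.0564).

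Among the 5 genes for double-stranded RNA and helicase proteins, all were higher (median log2 fold change 1.48). Ddx60, a helicase that assists RNA sensing, went from 12.8, 8.36 and 10.1 TPM to 60.1, 48.3 and 50.2 TPM and had the largest change of the group (2.25 ± 0.17, limma, adjusted p = 0.000922). Znfx1, a helicase that binds viral RNA at mitochondria, went from 87.4, 70.0 and 77.8 TPM to 270.1, 222 and 230.2 TPM (1.61 ± 0.13). The values of Znfx1 within a genotype lay close together. Eif2ak2 encodes PKR, the kinase that stops translation on double-stranded RNA, and went from 26.6, 16.2 and 26.2 TPM to 71.5, 54.2 and 68.2 TPM (1.48 ± 0.21). Pnpt1, a mitochondrial RNA exonuclease, was at 19.7, 19.7 and 22.4 TPM against 45.3, 35.5 and 45.1 TPM, the smallest change of the group (0.99 ± 0.13). The helicase Helz2 rose by 1.41, from 13.8 ± 3.57 TPM to 38.3 ± 8.13 TPM (n = 3 each).

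The TRIM and nuclear body proteins were higher in 7 of 7 genes, with a median log2 fold change of 1.72. Phf11b, a zinc-finger protein, had the largest change, from 11.2, 8.75 and 8.79 TPM to 127, 78.4 and 64.1 TPM (3.05 ± 0.25, limma, adjusted p = 0.000972). Its neighbour Phf11d went from 54.3, 30.7 and 40.2 TPM to 293, 194 and 171 TPM (2.36 ± 0.26). For both, Plcg2-/- 1 was highest and Plcg2-/- 3 lowest, and even the latter was far above every Plcg2+/+ library. Sp100, a scaffold of PML nuclear bodies, went from 83.2, 55.6 and 84.2 TPM to 356, 259 and 275 TPM (1.99 ± 0.20). Daxx, a histone chaperone of the same bodies, went from 69.2, 54.9 and 62.4 TPM to 255, 163 and 201 TPM (1.70 ± 0.18). Trim21 encodes a cytosolic antibody receptor that marks bound virus for degradation, and went from 12.1, 8.82 and 12.9 TPM to 37.7, 30.2 and 31.4 TPM (1.49 ± 0.17). Trim30a, a mouse TRIM protein that restrains Toll-like receptor signalling, was at 67.2, 43.2 and 59.2 TPM against 176, 135 and 169 TPM. The nearby Trim30d was at 32.4, 18.0 and 27.3 TPM against 101, 73.3 and 84.7 TPM. Both were lowest in replicate 2 of each genotype, and they rose by 1.50 and 1.72.

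The remaining 7 genes, adaptors, galectin-related proteins and others, were all higher (median log2 fold change 1.86). Ifi44, a cytoplasmic protein of the interferon response, was the least abundant of the 44 genes in Plcg2+/+, at 0.382, 0.792 and 0.420 TPM, and stood at 18.4, 23.2 and 7.11 TPM in Plcg2-/-. The rise of 3.36 ± 0.40 (limma, adjusted p = 0.00281) is understated by the pseudocount at such low levels. The ratio of the means, 30.5, was above that of Mx1, but this difference between the genes was not tested. Epsti1, a protein of macrophage activation, went from 28.0, 18.5 and 27.0 TPM to 129.9, 106 and 90.6 TPM (2.11 ± 0.20). Lgals9 encodes galectin-9, a secreted sugar-binding protein, and went from 84.2, 60.0 and 85.0 TPM to 329.8, 243 and 263 TPM (1.86 ± 0.18). In both genes the groups were separated by a wide gap. Nmi and Ifi35 encode partner proteins that bind each other. Nmi went from 22.3, 18.1 and 27.2 TPM to 90.7, 71.4 and 70.6 TPM (1.75 ± 0.18). Ifi35 went from 50.3, 39.8 and 45.4 TPM to 131, 119 and 103 TPM (1.37 ± 0.14), and it shares exon bases with the antisense gene Gm11626, at 0.916 and 3.78 TPM. The apoptosis regulator Xaf1 rose from 58.8 ± 12.2 TPM to 218 ± 52.3 TPM (n = 3 each, log2 fold change 1.86). Lgals3bp, a secreted glycoprotein and the most abundant gene of the 44, was at 1098, 754 and 917 TPM against 1892, 1799 and 1280.2 TPM (0.84 ± 0.21, limma, adjusted p = 0.0332). Its call was lost without Plcg2+/+ 1 (adjusted p = 0.0615, limma), Plcg2+/+ 2 (0.0919), Plcg2+/+ 3 (0.0622), Plcg2-/- 1 (0.129) or Plcg2-/- 2 (0.0874), and with median-of-ratios scaling (0.0926).

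RefSeq promoter windows (250 bases before to 50 after the transcription start, GRCm38.p6) were found for 35 of the 44 genes, not counting Parp9, Parp10, Parp14, Mx1, Mx2, Rtp4, Usp18, Tor3a and Ifi27l2a. On either strand, the core of the interferon-stimulated response element, GAAA and GAAA with 2 bases of any kind between them, stood in the windows of 14 of these 35 genes (40.0%), against 3.99% of the 27025 genes in the table. The palindromic core of the gamma-activated site, TTC and GAA with 3 bases of any kind between them, stood in those of 8 of 35 genes (22.9%), against 9.55% of all genes. A gene with more than 1 window was counted if any of them held a match. The 14 genes with the response element core were Bst2, Ddx60, Eif2ak2, Ifitm2, Ifitm3, Isg15, Lgals9, Parp11, Phf11b, Rsad2, Shisa5, Trim21, Trim30a and Trim30d. Their median log2 fold change was 1.67, from 0.44 to 3.17, and that of the 21 genes without it was 1.75, from 0.54 to 3.36. In Eif2ak2, Ifitm3, Shisa5 and Trim21 the matches lay only past a start, and that of Shisa5 was at a later of its annotated starts. A match is a description of letters, and no match says only that these letters are not in the window. The genes for the modifier Isg15, the helicase Ddx60 and tetherin Bst2 each held more than 1 match before the start, and the 150 bases before their starts are shown on the strand of the gene, 5′ to 3′, with the matches in capitals.
Isg15 (chr4:156200819-156200968, minus strand): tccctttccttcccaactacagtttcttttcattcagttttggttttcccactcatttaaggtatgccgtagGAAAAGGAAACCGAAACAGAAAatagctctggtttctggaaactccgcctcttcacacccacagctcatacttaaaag
Ddx60 (chr8:61927937-61928086, plus strand): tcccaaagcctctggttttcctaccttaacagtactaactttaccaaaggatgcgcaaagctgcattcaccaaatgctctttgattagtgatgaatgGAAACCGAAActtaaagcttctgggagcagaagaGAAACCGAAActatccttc
Bst2 (chr8:71537473-71537622, minus strand): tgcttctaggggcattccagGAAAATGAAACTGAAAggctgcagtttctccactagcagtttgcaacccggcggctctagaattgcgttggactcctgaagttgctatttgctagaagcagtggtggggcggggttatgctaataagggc
In Isg15 there were 3 overlapping matches, which began 78, 72 and 66 bases before the start, and in Bst2 there were 2, at 130 and 124 bases. The pair of matches in Ddx60 did not overlap and began 53 and 19 bases before the start. These genes rose by 3.17, 1.61 and 2.25 on the log2 scale for Isg15, Bst2 and Ddx60.

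Several of the genes are neighbours, and the ratio of neighbours or partners within a library does not depend on how libraries are scaled. In all, 7 such pairs were compared, chosen after their values were seen, by exact two-sided permutation tests over the 3 and 3 libraries, for which 0.1 is the smallest p possible. Mx1 and Mx2 lie 72401 bases apart on chromosome 16. Their TPM ratio was 1.06, 0.809 and 1.47 in Plcg2+/+ and 3.63, 2.78 and 3.32 in Plcg2-/-, so that the levels were near equal in the former and Mx1 was in excess in the latter (exact p = 0.1, adjusted over the 7 pairs 0.175). Ifitm3 to Ifitm2, 53599 bases apart on chromosome 7, had ratios of 2.13, 1.81 and 1.62 and 7.06, 5.74 and 3.34. For this pair the ratio in Plcg2-/- 3 was the lowest of its genotype, yet above every Plcg2+/+ library. Phf11b to Phf11d, 6056 bases apart on chromosome 14, went from 0.206, 0.285 and 0.218 to 0.433, 0.405 and 0.374, and Trim30a to Trim30d, 4821 bases apart on chromosome 7, went from 2.07, 2.40 and 2.16 to 1.74, 1.84 and 1.99. The ratios of these 4 pairs did not overlap between the genotypes (exact p = 0.1 and adjusted p = 0.175 for each). The ratios overlapped for Rsad2 to Cmpk2, at 1.64 ± 0.126 and 1.56 ± 0.120 (SD, n = 3, exact p = 0.5), for Parp9 to Dtx3l, at 2.07 ± 0.424 and 1.55 ± 0.308 (SD, n = 3, exact p = 0.2), and for Nmi to Ifi35, at 0.499 ± 0.0871 and 0.657 ± 0.0513 (SD, n = 3, exact p = 0.2). Parp9 and Dtx3l overlap on opposite strands of chromosome 16, and whether the counting used strand is not stated. How reads of close relatives such as Mx1 and Mx2, Ifitm2 and Ifitm3, the Phf11 genes and the Trim30 genes were shared out by the quantification was not tested, so their single values are uncertain.

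**Figure D3:**
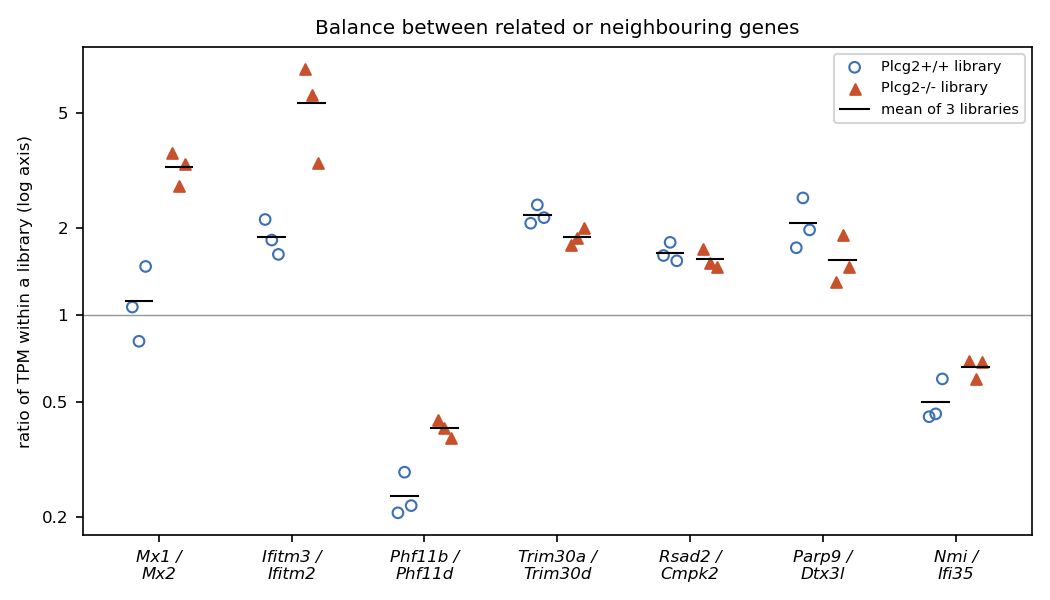
Ratio of TPM of 2 neighbouring or partner genes within each library (y axis, log scale) for 7 pairs, with 1 point per library and a bar at the mean of the 3 libraries of a genotype. The ratios of Mx1 to Mx2, Ifitm3 to Ifitm2, Phf11b to Phf11d and Trim30a to Trim30d do not overlap between genotypes, and those of the other 3 pairs do.

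The promoter windows of these neighbours are shown in the same way, so that a gene can be set beside its neighbour. In Phf11b the match began 50 bases before the start, and none was found in Phf11d. Within the stretches printed below, which end at the start, Phf11b and Phf11d shared no run longer than 9 letters. Their full windows shared longer runs, among them agaaactagaaact, which lies past the start in Phf11d. Rsad2 and Cmpk2 are transcribed away from each other, 12752 bases apart on chromosome 12, and only the Rsad2 window held a match, on the opposite strand (read here as TTTC and TTTC around 2 bases). The windows of Trim30a and Trim30d shared a run of 118 letters that holds their match, also on the opposite strand, 36 and 41 bases before the start. In Ifitm2 the match began 46 bases before the start.
Phf11b (chr14:59341331-59341480, minus strand): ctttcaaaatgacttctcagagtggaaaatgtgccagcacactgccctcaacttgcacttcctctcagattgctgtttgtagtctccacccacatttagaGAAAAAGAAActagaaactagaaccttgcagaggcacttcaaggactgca
Phf11d (chr14:59365491-59365640, minus strand): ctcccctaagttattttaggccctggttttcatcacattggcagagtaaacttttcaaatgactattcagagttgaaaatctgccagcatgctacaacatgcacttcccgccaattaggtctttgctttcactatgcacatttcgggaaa
Rsad2 (chr12:26456453-26456602, minus strand): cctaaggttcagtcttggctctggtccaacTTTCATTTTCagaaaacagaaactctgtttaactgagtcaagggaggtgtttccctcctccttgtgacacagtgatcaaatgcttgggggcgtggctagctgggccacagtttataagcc
Cmpk2 (chr12:26469065-26469214, plus strand): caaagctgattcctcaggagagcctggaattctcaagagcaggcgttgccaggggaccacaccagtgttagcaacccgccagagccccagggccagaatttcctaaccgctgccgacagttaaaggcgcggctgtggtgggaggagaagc
Trim30a (chr7:104465194-104465343, minus strand): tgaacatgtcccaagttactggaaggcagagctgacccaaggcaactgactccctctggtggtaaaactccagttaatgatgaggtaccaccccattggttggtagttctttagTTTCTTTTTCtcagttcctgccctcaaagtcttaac
Trim30d (chr7:104507850-104507999, minus strand): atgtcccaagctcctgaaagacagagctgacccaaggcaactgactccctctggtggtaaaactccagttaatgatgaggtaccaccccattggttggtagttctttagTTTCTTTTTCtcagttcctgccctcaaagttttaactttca
Ifitm2 (chr7:140955962-140956111, minus strand): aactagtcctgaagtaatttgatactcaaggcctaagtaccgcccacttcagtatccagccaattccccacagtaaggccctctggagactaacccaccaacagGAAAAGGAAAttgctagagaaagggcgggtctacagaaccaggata
In Ifitm3 there were 2 matches just past the start, within its first 30 transcribed bases, again in capitals.
Ifitm3 (chr7:141010715-141010744, minus strand): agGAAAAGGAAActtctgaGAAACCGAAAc
Of these pairs, Phf11b with a match rose by 3.05 and Phf11d without one by 2.36, Rsad2 with a match by 2.48 and Cmpk2 without one by 2.53, and Ifitm3 and Ifitm2, both with matches, differed by 2.00 and 0.52 between genotypes.

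The 3 Plcg2-/- libraries were not alike in these genes. Plcg2-/- 1 was the highest of its genotype for 41 of 44 genes, against 37.0% of all genes tested, and Plcg2-/- 3 was the highest for 0. The exceptions, highest in Plcg2-/- 2, were Mx2, Ifitm2 and Ifi44. Plcg2-/- 2 was lowest for 22 genes, near its share of 46.2% over all genes tested, Plcg2-/- 3 for 21, against 25.4%, and Plcg2-/- 1 for Ifitm2. With median-of-ratios scaling Plcg2-/- 1 was still highest for 39 genes, against 33.7% of all genes tested. Under that scaling Plcg2-/- 2 was lowest for 16, near its share of 36.7% over all genes tested, and Plcg2-/- 3 for 27, against 32.2%. The level in Plcg2-/- 3 was 0.388 times that in Plcg2-/- 1 for Ifi44, 0.412 for Isg20, 0.506 for Phf11b, 0.532 for Ifitm3, 0.555 for Bst2 and 0.572 for Isg15. For Pnpt1, Trim30a and Eif2ak2 these ratios were 0.995, 0.961 and 0.953, so that Plcg2-/- 3 was close to Plcg2-/- 1 for them. Plcg2-/- 1 also had the lowest mitochondrial share of TPM, 5.00%, with 8.23% in Plcg2-/- 2 and 8.68% in Plcg2-/- 3, and the part of that in the order was not tested. Of the Plcg2+/+ libraries, replicate 2 was lowest for 34 of the 44 genes, against 47.7% of all genes tested, and it had the highest mitochondrial share, 17.3%. The highest value of a genotype was between 1.14 and 3.26 times the lowest in Plcg2-/- (median 1.38) and between 1.03 and 3.97 times in Plcg2+/+ (median 1.43).

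**Figure D4:**
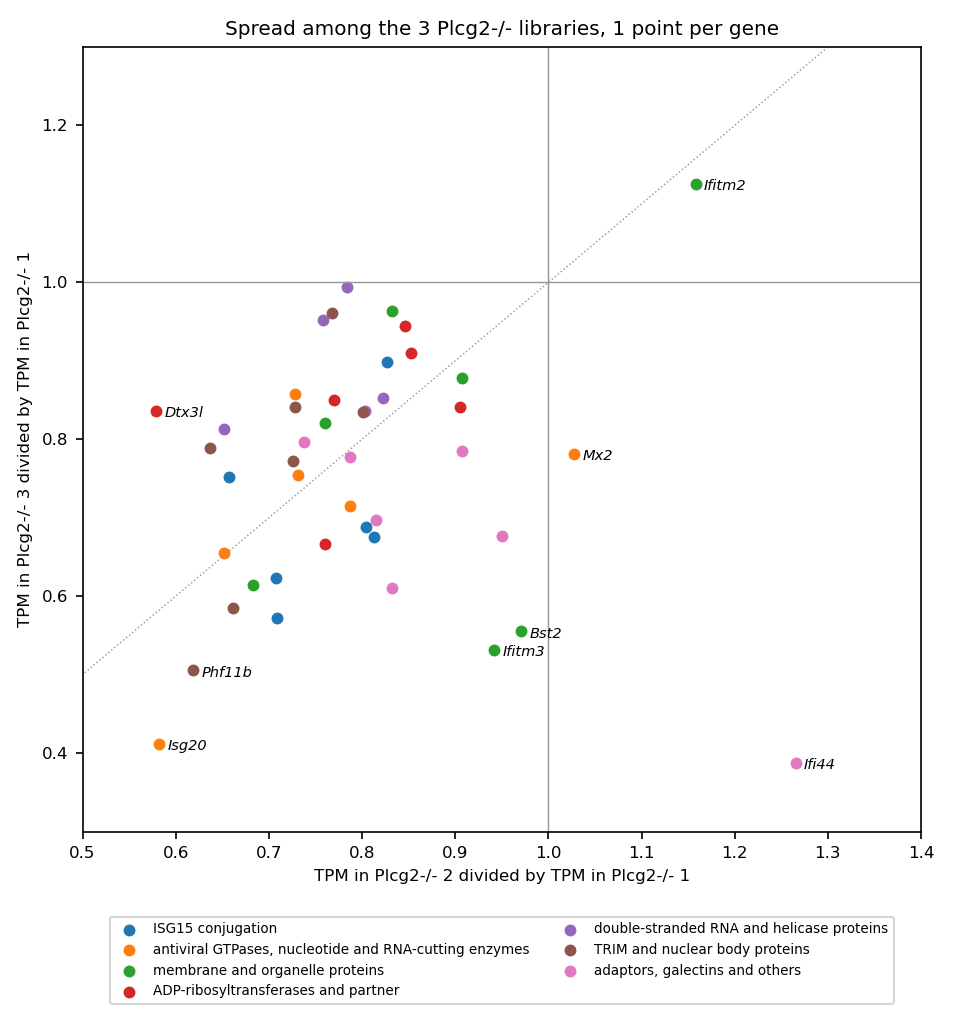
TPM in Plcg2-/- 2 (x axis) and in Plcg2-/- 3 (y axis), each divided by TPM in Plcg2-/- 1, with 1 point per gene coloured by role group. Most points lie below 1 on both axes, since Plcg2-/- 1 was highest for 41 of 44 genes, and Ifi44 (0.388) and Isg20 (0.412) lie lowest.

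The genes that make and carry the interferon signal were read from lists chosen for their known roles, again with earlier results of these data known. The lists held 63 genes in the table, of which 41 had a mean of at least 1 TPM and were tested. Of these, 27 were higher in Plcg2-/- and 0 lower by limma (15.6% and 5.31% of all genes). At an unadjusted p below 0.05 there were 31 higher and 0 lower, again without a count over all genes. Their median log2 fold change was 0.86, about 0.68 above that of all genes. Of the 21 interferon genes themselves none reached a mean of 1 TPM over the 6 libraries, and 17 were listed at 0 in every library. Ifnb1, the gene for interferon beta, was at 0, 0.199 and 0.144 TPM in Plcg2+/+, against 1.92, 2.90 and 0.652 TPM in Plcg2-/-. Its groups did not overlap, but at these low levels it was tested only without a filter, where it was not called (log2 fold change 1.26 ± 0.32, limma, adjusted p = 0.0790), and it is named here after its values were seen. Of the receptors and kinases 4 of 8 were higher, with the smallest p for Jak2, from 11.4 ± 1.32 TPM to 27.3 ± 4.14 TPM (1.18 ± 0.15), Tyk2 (0.86 ± 0.12) and Ifngr1, a chain of the interferon gamma receptor (0.60 ± 0.11). The call for Ifngr1 was lost without Plcg2+/+ 1 (limma, adjusted p = 0.0513). The receptor chain Ifnar1 was at 40.6 ± 3.64 TPM and 35.4 ± 0.847 TPM and Ifnar2 at 131 ± 9.08 TPM and 115 ± 13.1 TPM, and neither was called (limma, adjusted p = 0.241 and 0.304). All 3 Plcg2-/- values of Ifnar1 lay below its Plcg2+/+ values. Their log2 fold changes, both -0.19, were both -0.40 with median-of-ratios scaling, where Ifnar2 was called lower once the replicate block was added (limma, adjusted p = 0.0420).

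Among the transcription factors, 6 of 9 were higher, with the smallest p for Irf1, from 43.5 ± 1.78 TPM to 134 ± 15.9 TPM (1.59 ± 0.12), Stat2, from 95.6 ± 24.9 TPM to 330.5 ± 65.5 TPM (1.79 ± 0.23), and Irf7, from 77.3 ± 34.4 TPM to 472 ± 179.9 TPM (2.61 ± 0.40). Feedback inhibitors were higher in 5 of 7 genes. They included Socs1, which blocks JAK kinases, at 1.37 ± 0.254 TPM and 6.24 ± 1.73 TPM, and the phosphatases Ptpn6 (0.95 ± 0.15) and Ptpn1 (0.86 ± 0.16). Without Plcg2+/+ 1 or Plcg2-/- 1 Ptpn1 was not called (limma, adjusted p = 0.0535 and 0.0587). Of 17 sensors of nucleic acids and their adaptors 12 were higher, with the smallest p for Dhx58, a regulator of RNA sensing (2.05 ± 0.16), Tlr9, the DNA-sensing Toll-like receptor (1.93 ± 0.16), and Adar, which edits double-stranded RNA (1.12 ± 0.10). The medians of the receptor and kinase, transcription factor, feedback and sensor lists were 0.38, 0.74, 0.86 and 1.12, beside 1.71 for the 44 interferon-stimulated genes. No test was made of these differences.

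**Figure D5:**
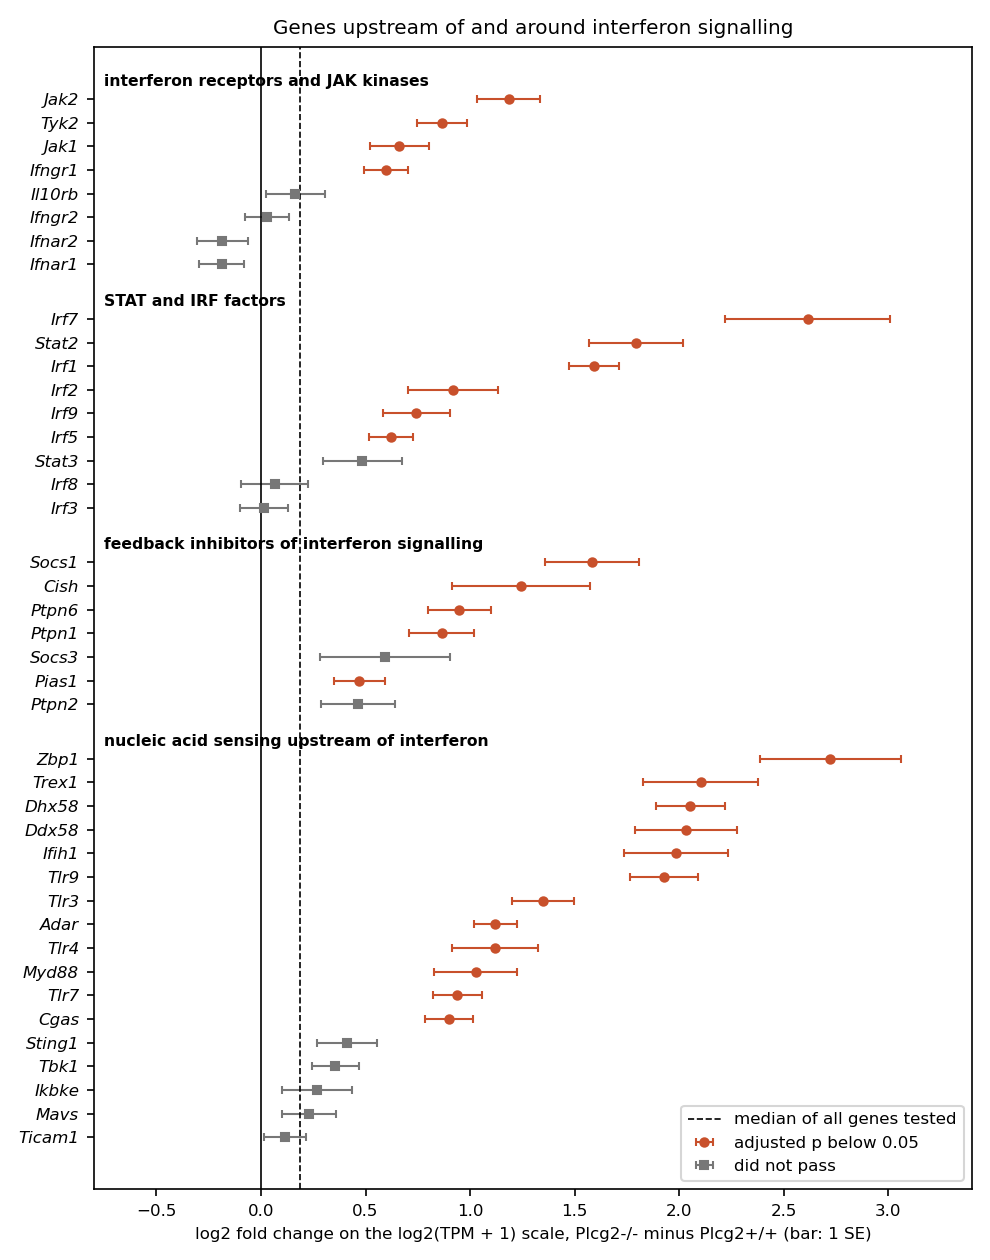
Log2 fold change (x axis, Plcg2-/- relative to Plcg2+/+, TPM + 1) of the 41 tested signalling and sensing genes (y axis), grouped by list, with bars of 1 standard error from limma (3 libraries per genotype). Circles are the 27 genes called higher, grey squares the genes not called, the dashed line is the median of all genes tested, and Ifnar1 and Ifnar2 lie left of 0.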

How the data were processed

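The values are TPM, deposited by the authors as 1 table with a column for each of 6 libraries, each summing to 1000000. The submitters' processing notes name R 4.0.4, DESeq2 1.30.1, Salmon 1.3.0 and GRCm38.p6. Neither the annotation release nor the strand setting or the step to TPM is stated there. Genotype and replicate came from sample titles. Reads were 150-bp pairs, per the labels' protocols.

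No further scaling was applied. The 12652 genes with a mean of at least 1 TPM were tested on log2(TPM + 1) in R 4.3.3 with the two-sided moderated test of limma 3.58.1. The prior variance followed the mean, with 2.97 prior beside 4 residual degrees of freedom, and the Benjamini-Hochberg threshold was 0.05. The script was tested on simulated data. Ratios were tested by exact permutation. Python 3.11.15, pandas 2.3.3, numpy 2.4.6, scipy 1.17.1 and matplotlib 3.10.9 were used. Identifiers of 44 of 44 genes matched GENCODE M21 (GRCm38), 42 with the same version, and Isg15 and Mx1 without it. Promoter windows are from RefSeq.

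The 44 genes and all lists were chosen with earlier results of these data known. By rule, values were given for Plcg2, up to 4 genes per role group and 3 per signalling list with the smallest p, and each of the 44 genes not called. A gene of the signalling lists is not reported here and was left out of their counts. Other genes named with values (for example Isg20, Ifi44, Ifnar1 and Ifnar2) were added after their values were seen.

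Replicate numbers occur in both genotypes. Deviations from genotype means correlated at 0.295, 0.193 and 0.147 over the tested genes between libraries with the same number, all above 0.1. The libraries were therefore treated as paired by number in the block. Over the interferon-stimulated genes alone these correlations were 0.0873, 0.47 and 0.0591, not all above 0.1. For those genes, Plcg2+/+ 3 with Plcg2-/- 1 gave 0.217 and Plcg2+/+ 1 with Plcg2-/- 3 gave 0.295. The other pairs with different numbers were negative. The pairing thus rests on all tested genes and was not clear in the interferon-stimulated genes alone. The labels do not say that the numbers mark a litter, and p-values are unpaired unless the block is named. The alternatives were other pseudocounts, filters, scalings and prior variances, the replicate block, a Y-linked covariate and leaving out each library.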

Additional observations from a re-analysis of the deposited data

How the results depend on the processing

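Over the 18 alternatives, 38 to 44 of the 44 interferon-stimulated genes were called higher and 0 lower, the lowest without Plcg2-/- 1 and the highest with the replicate block. The call of 38 genes held under every alternative. Of 792 gene values under alternatives 31 lost and 5 gained a call, in Trim25, Ifitm2, Ifi27l2a, Shisa5, Parp11 and Lgals3bp, and 0 changed sign. Of the signalling genes, 19 to 29 were called higher. None was called lower except 1 (Ifnar2, -0.40, limma, adjusted p = 0.0420) with the replicate block and median-of-ratios scaling together. Ifngr1 was not called with quantile normalization (limma, adjusted p = 0.0563) or with that block and scaling (0.0571). Over all genes, the number called higher was 1226 with no filter, 975 with median-of-ratios scaling, 959 with quantile normalization, 1223 rescaled without mitochondrially encoded genes, 842 with the Y-linked covariate, and 559 to 2106 with 1 library left out. The number called lower was 1031 with quantile normalization, 375 with the covariate, and 276 to 644 with 1 library left out. The replicate block called 2483 higher and 815 lower, and with median-of-ratios scaling 1104 and 1127. The causes were not tested. The block changed no other call among the 44 genes than those of Ifitm2 and Ifi27l2a. The depth reached in each library is unknown from TPM. Genes below 1 TPM, the interferons among them, were measured with a precision that cannot be given.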
